A study of Mus musculus with 14 samples.

Results

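Expression of 9 genes of antigen presentation by MHC class II was followed across 14 arrays of isolated pancreatic islets. The genes were taken by name, with earlier results of these data known: H2-Aa, H2-Ab1, H2-Eb1, H2-DMa, H2-Oa, H2-Ob, Cd74, Ciita and Ctss. Each of these 9 genes had 1 transcript cluster (the array's unit for a gene) whose annotation names it, so all 9 were measured, among 19938 genes tested, and none was lost to a filter. The islets came from 11-week-old mice on a background of C57BL/6 and NMRI (1:1). Of the arrays, 5 were of islets from mice labelled IKK2-CApdx-1 (IKK2-CA below). These mice were diabetic and made a constitutively active IKK2 in their β-cells through the Pdx-1-tTA driver. IKK2 is the kinase that switches on NF-κB. Another 4 were of Pdx-1+/- mice, in which the same driver leaves them haploinsufficient for Pdx-1. The last 5 were of control mice, whose alleles the labels do not give. Pdx-1 is a transcription factor needed for β-cell identity. IKK2-CA mice thus combine the driver allele, active IKK2 and diabetes, and the effects of active IKK2 and of diabetes cannot be told apart. The labels give no MHC haplotype for this mixed background. A probe can bind the alleles of a polymorphic H2 gene unequally, so part of an H2 difference between arrays could be one of allele, which was not tested. Values are log2 signals after robust multichip averaging (RMA), which can be compared between arrays for the same gene but not between genes.

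MHC class II molecules are pairs of an α and a β chain that carry peptides of engulfed proteins to the cell surface, where CD4+ T cells read them. Dendritic cells, B cells and macrophages make them constitutively, and interferon-γ can induce them in other cells. The newly made pair binds the invariant chain Cd74, which the protease cathepsin S (Ctss) trims. H2-DM then exchanges the remaining fragment for a peptide, and H2-O holds H2-DM back. Ciita, a co-activator that does not bind DNA itself, switches on the genes of the class II chains and of Cd74. It acts through the RFX and NF-Y complexes, which sit on the X and Y boxes of the promoters of those genes.

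Stretches of 4 promoters are shown because they hold letters of the X and Y boxes. They are RefSeq sequences of build GRCm38.p6, and 6 of the 9 genes had a promoter of 300 bases there. The search was for GCAAC, a core of the X box, followed on the same strand after 20 to 35 bases by TGATTGG, which holds the inverted CCAAT of the Y box. Both strands were searched, and the letters were chosen with these promoters in view. H2-Aa, H2-Eb1, H2-Oa and H2-Ob held this arrangement, against 47 of all 32851 promoters in the table (0.143%). The stretches lie at chr17:34287857-34287914 (minus strand) for H2-Aa, chr17:34305766-34305822 (plus strand) for H2-Eb1, chr17:34092293-34092350 (plus strand) for H2-Oa and chr17:34238808-34238862 (plus strand) for H2-Ob. They are printed 5′ to 3′ along the gene, and capitals mark the X core and the Y letters.
H2-Aa: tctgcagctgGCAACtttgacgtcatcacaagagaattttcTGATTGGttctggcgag
H2-Eb1: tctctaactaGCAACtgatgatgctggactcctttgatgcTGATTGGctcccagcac
H2-Oa: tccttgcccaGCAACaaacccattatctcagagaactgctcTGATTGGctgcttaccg
H2-Ob: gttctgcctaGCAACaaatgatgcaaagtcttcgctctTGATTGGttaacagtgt
The gap between the capitals is 26 bases in H2-Aa and H2-Oa, 25 in H2-Eb1 and 23 in H2-Ob. The Y letters end 38 to 54 bases before the start site. The 2 promoters listed for H2-DMa and the 1 for Ctss did not hold this arrangement. H2-Ab1, Cd74 and Ciita had no entry.

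After RMA, which brings the arrays to a common scale, their medians ran from 6.45 to 6.55. Ins2, the insulin gene, lay between 12.31 and 12.68 and Gcg, the glucagon gene, between 12.88 and 13.36 on all 14 arrays. The other endocrine genes were not as even, and their values are given with the cell markers. All 14 arrays also held genes of the exocrine pancreas: Cpa1, Cela1 and Ctrb1, which encode digestive enzymes of acinar cells, lay between 13.16 and 13.73. These acinar values lie near the highest signal of the arrays (13.85 to 13.96). Whether differences are compressed there was not tested. Genes of fat and gut stood out on single arrays. Adipoq, the adiponectin gene of adipocytes, was at 10.60 on IKK2-CA array 5 and between 5.40 and 6.71 on IKK2-CA arrays 1 to 4. Sis, the sucrase-isomaltase gene of the gut, was at 9.16 on Pdx-1+/- array 4 and 6.05 on control array 3, and between 3.18 and 3.45 elsewhere. Results are therefore also given with both IKK2-CA array 5 and Pdx-1+/- array 4, called the doubtful arrays below, left out. Control array 3 also held gut signal but was kept in those runs. Results without it are given where single arrays are left out. The labels do not say that each array is a separate mouse, so p-values measure the spread between arrays.

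**Figure D1:**
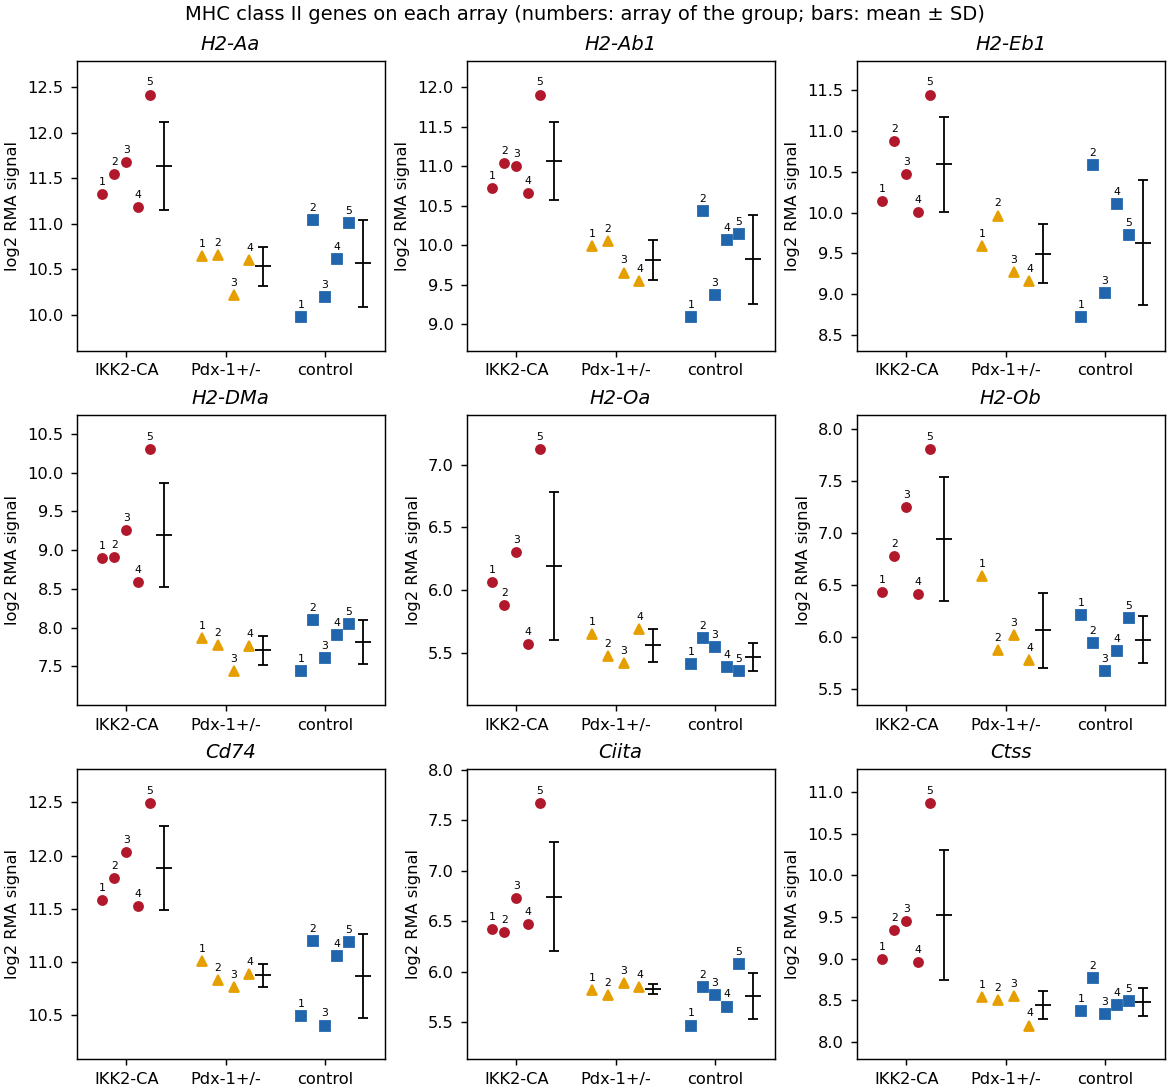
Log2 RMA signal of each of the 9 genes (panels, vertical axis) on each array of IKK2-CA, Pdx-1+/- and control islets; the number beside a point is the array of its group, and black bars are the mean ± SD (n = 5, 4 and 5). IKK2-CA array 5 is the highest point in every panel, and in 6 panels every IKK2-CA point lies above every point of both other groups.

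All 9 genes read higher in IKK2-CA islets than in control islets, and 5 of them rose: H2-DMa, H2-Ab1, H2-Aa, Cd74 and Ciita. Over all genes tested, 0.682% rose in this comparison (limma, adjusted p under 0.05 over all genes). The median difference of the 9 genes was log2 1.02, against −0.012 over all genes. For 7 of the 9 the arrays of the groups did not overlap, which held for 1.86% of all genes in that direction. The exceptions were H2-Eb1 and H2-Oa. All 9 had an unadjusted p under 0.05, as did 6.2% of all genes in that direction. In bulk islets, more cells of a type and more RNA per cell cannot be told apart.

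Of the chains of the presenting pair among the 9, both chains of I-A rose and the β chain of I-E did not pass. The α chain gene of I-E, H2-Ea, is not among the 9 and is given below with the other pathway genes. H2-Aa, the α chain of I-A, read 11.33, 11.55, 11.68, 11.18 and 12.42 on the IKK2-CA arrays, against 9.97, 11.04, 10.19, 10.62 and 11.01 on the control arrays. The lowest IKK2-CA array thus lay just above the highest control arrays. The difference was log2 1.06 (SE 0.24), or 2.09-fold, and passed (limma, adjusted p = 0.0345). H2-Ab1, its β chain partner, read 10.73, 11.05, 11.00, 10.66 and 11.91 in IKK2-CA islets, against 9.09, 10.44, 9.38, 10.07 and 10.14 in control islets. The groups did not overlap, and the 2.37-fold rise passed (log2 1.24, SE 0.27, limma adjusted p = 0.0262). H2-Eb1, the β chain of I-E, read 10.15, 10.88, 10.48, 10.01 and 11.45 in IKK2-CA islets, against 8.72, 10.59, 9.02, 10.11 and 9.72 in control islets. Control array 2 lay above 3 of the IKK2-CA arrays, and the gene did not pass (log2 0.96, SE 0.34, limma adjusted p = 0.169).

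Of 3 genes that prepare the pair for peptide, H2-DMa and Cd74 rose and Ctss did not pass. H2-DMa, the α chain of the peptide exchanger, had the largest difference of the 9. It read 8.89, 8.90, 9.26, 8.59 and 10.31 in IKK2-CA islets, against 7.43, 8.09, 7.61, 7.90 and 8.05 in control islets. All IKK2-CA arrays lay above all control arrays, and the rise was 2.59-fold (log2 1.37, SE 0.25, limma adjusted p = 0.014). Cd74 read 11.58, 11.79, 12.03, 11.53 and 12.50 in IKK2-CA islets, against 10.49, 11.20, 10.40, 11.06 and 11.19 in control islets. It did not overlap either and rose 2.03-fold (log2 1.02, SE 0.19, limma adjusted p = 0.0162). Ctss read 8.99, 9.34, 9.45, 8.96 and 10.88 in IKK2-CA islets, against 8.38, 8.76, 8.33, 8.44 and 8.49 in control islets. It did not overlap but missed the threshold with all arrays (log2 1.04, SE 0.28, limma adjusted p = 0.065). IKK2-CA array 5 stood well above the next array (10.88 and 9.45). Without it the difference was smaller and Ctss passed (log2 0.71, limma adjusted p = 0.0118).

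Neither of the H2-O chains, which restrain H2-DM, passed. H2-Oa read 6.06, 5.89, 6.31, 5.57 and 7.13 in IKK2-CA islets, against 5.41, 5.62, 5.55, 5.39 and 5.36 in control islets. IKK2-CA array 4 fell within the control range, and the gene did not pass (log2 0.73, SE 0.21, limma adjusted p = 0.0892). H2-Ob read 6.43, 6.78, 7.25, 6.42 and 7.81 in IKK2-CA islets, against 6.21, 5.95, 5.67, 5.87 and 6.19 in control islets. Its groups did not overlap, and it lay just outside the threshold (log2 0.96, SE 0.24, limma adjusted p = 0.0528). The difference was smallest for H2-Oa and largest for H2-DMa, but their 95% intervals overlapped (log2 0.28 to 1.17 and 0.83 to 1.91).

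Ciita, the co-activator of class II genes, read 6.43, 6.39, 6.73, 6.47 and 7.67 in IKK2-CA islets, against 5.47, 5.85, 5.76, 5.66 and 6.08 in control islets. No IKK2-CA array reached down to the control range. The rise was 1.97-fold (log2 0.98, SE 0.20, limma adjusted p = 0.0219). IKK2-CA array 5 lay above the next array (7.67 and 6.73), and without it the rise was smaller and still passed (log2 0.75, limma adjusted p = 0.00383).

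The count of 5 depended on single arrays. It was 0 without control array 3, where 120 of all genes passed in place of 448, and H2-DMa and Cd74 then had adjusted p = 0.0509 and 0.053 (limma). It was 2 without control array 1, control array 4 or IKK2-CA array 3, and 3 without IKK2-CA array 2. Without IKK2-CA array 4 it was 8, where 980 of all genes passed. The count over all genes thus also moved with single arrays, from 120 to 980. H2-DMa and Cd74 passed when any other single array was left out. H2-Aa was lost without any 1 of 7 arrays (IKK2-CA arrays 2, 3 and 5, Pdx-1+/- array 2 and control arrays 1, 3 and 4), with adjusted p up to 0.116. H2-Ab1 was lost without any 1 of 5 arrays (IKK2-CA arrays 2 and 3 and control arrays 1, 3 and 4), with adjusted p up to 0.0914. Ciita was lost without IKK2-CA array 3 or control arrays 1, 3 or 4, with adjusted p up to 0.0686. H2-Ob, Ctss and H2-Oa joined the genes that passed without IKK2-CA array 4 (limma adjusted p = 0.0238, 0.0296 and 0.022), and H2-Ob also passed without IKK2-CA array 1 or Pdx-1+/- array 4 (adjusted p = 0.043 and 0.0458). With both doubtful arrays out and control array 3 kept, 6 of the 9 rose, against 0.943% of all genes. The median difference of the 9 was then log2 0.75.

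**Figure D2:**
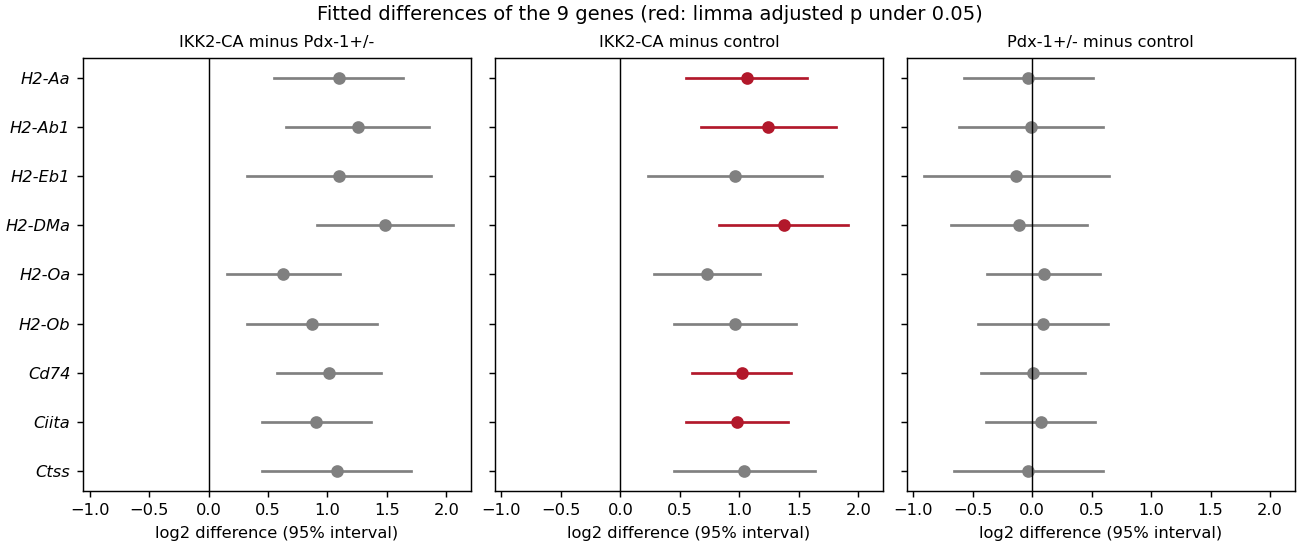
Fitted log2 difference of each of the 9 genes (points) with its 95% interval (lines) in IKK2-CA minus Pdx-1+/-, IKK2-CA minus control and Pdx-1+/- minus control; red marks a limma adjusted p under 0.05. The 5 genes that rose are all in the IKK2-CA minus control panel, and the intervals of Pdx-1+/- minus control all contain 0.

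Against Pdx-1+/- islets, which carry the same driver allele, the differences were of like size but none passed. This comparison asks what active IKK2 and the diabetes add to the driver allele, and it uses the same 5 IKK2-CA arrays as the one with control, so the values are given side by side. All 9 differences were positive, from log2 0.63 for H2-Oa to 1.48 for H2-DMa, with a median of 1.08 against −0.015 over all genes. Of the 9, 0 had a limma adjusted p under 0.05, which 0.0752% of all genes had in the upward direction. All 9 had an unadjusted p under 0.05, which 4.32% of all genes had in that direction. The arrays did not overlap for 7 of the 9, all but H2-Oa and H2-Ob, against 1.72% of all genes in that direction.

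H2-DMa came nearest to the threshold. Its Pdx-1+/- arrays read 7.87, 7.77, 7.43 and 7.76, all below the lowest IKK2-CA array at 8.59. The difference was log2 1.48 (SE 0.27, limma adjusted p = 0.0663). Without IKK2-CA array 5 it passed (log2 1.21, adjusted p = 0.00354), as it did without IKK2-CA array 4 (log2 1.64, adjusted p = 0.0255). Cd74 read 11.01, 10.83, 10.77 and 10.88 in Pdx-1+/- islets, below the lowest IKK2-CA array at 11.53. The difference did not pass (log2 1.01, SE 0.21, limma adjusted p = 0.101).

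The Ciita arrays lay close together in Pdx-1+/- islets. Ciita read 5.82, 5.77, 5.89 and 5.85 there, with an SD of 0.05 (n = 4), against an SD of 0.54 (n = 5) in IKK2-CA islets. The difference was log2 0.91 (SE 0.21, limma adjusted p = 0.203) and passed without IKK2-CA array 5 (log2 0.67, adjusted p = 0.0215). Ctss read 8.54, 8.50, 8.55 and 8.20 in Pdx-1+/- islets. Its difference was log2 1.08 (SE 0.29, limma adjusted p = 0.312) and also passed without IKK2-CA array 5 (log2 0.74, adjusted p = 0.0254). Without IKK2-CA array 5, 3 of the 9 thus passed, among 66 of all genes.

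Of the I-A, I-E and H2-O chains among the 9, both I-A chains and the I-E β chain did not overlap with Pdx-1+/- islets. The H2-O chains did. H2-Aa read 10.65, 10.66, 10.22 and 10.61 and H2-Ab1 read 9.996, 10.06, 9.66 and 9.54 in Pdx-1+/- islets, below every IKK2-CA array. Their differences were log2 1.10 (limma adjusted p = 0.185) and 1.25 (limma adjusted p = 0.149). H2-Eb1 read 9.59, 9.96, 9.27 and 9.16 there, with its highest array just under the lowest IKK2-CA array at 10.01 (log2 1.09, limma adjusted p = 0.46). H2-Oa and H2-Ob overlapped, since IKK2-CA array 4 (5.57 and 6.42) lay below Pdx-1+/- array 1 (5.65 and 6.59). With both doubtful arrays out, only H2-DMa of the 9 rose (log2 1.22, limma adjusted p = 0.00937), against 0.256% of all genes.

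Loss of 1 Pdx-1 copy alone went with no detected change in these genes. Between Pdx-1+/- and control islets, whose arrays also enter the comparisons above, the 9 differences ran from log2 −0.13 (H2-Eb1) to 0.10 (H2-Oa), with a median of −0.010 against −0.0049 over all genes. Of the 9, 0 passed, while 0.0953% of all genes did, all of them lower (limma). At an unadjusted p under 0.05 there were 0 of the 9 and 4.71% of all genes. All 9 overlapped between the groups. The 95% intervals were widest for H2-Eb1 (log2 −0.91 to 0.64) and narrowest for Cd74 (−0.43 to 0.45), so smaller shifts cannot be seen with these arrays. In the order of levels IKK2-CA islets had the highest mean for every gene, and Pdx-1+/- and control islets did not differ beyond their spread.

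Other genes of the pathway were counted in the same way. Of 21 listed names, 17 were measured, with a median of log2 0.14 in IKK2-CA against control islets. In that comparison 2 of the 17 rose and 0 fell, against 0.682% and 1.56% of all genes. The 2 were Ifi30, the thiol reductase that unfolds antigens, and H2-Ea, the gene of the I-E α chain. RefSeq lists H2-Ea as a transcribed pseudogene in C57BL/6J. Ifi30 read 9.84, 9.88, 10.73, 9.66 and 11.06 in IKK2-CA islets, against 9.40, 9.30, 9.004, 8.93 and 9.19 in control islets. It did not overlap and rose 2.10-fold (log2 1.07, SE 0.25, limma adjusted p = 0.0415). H2-Ea rose 2.03-fold (log2 1.02, SE 0.24, limma adjusted p = 0.0428) with overlapping groups, from 6.93 to 8.38 in IKK2-CA islets and from 6.06 to 6.97 in control islets. H2-Eb2, a less studied β chain, was at log2 0.77 (SE 0.23, limma adjusted p = 0.105). Both calls were fragile: H2-Ea was lost when any of 8 arrays was left out (IKK2-CA arrays 2, 3 and 5, Pdx-1+/- arrays 2 and 3 and control arrays 1, 3 and 4), with adjusted p up to 0.132. Ifi30 was lost without any 1 of 9 (IKK2-CA arrays 3 and 5, Pdx-1+/- arrays 1, 2 and 3 and control arrays 1, 3, 4 and 5), with adjusted p up to 0.126. With both doubtful arrays out, 2 of the 17 rose, against 0.943% of all genes.

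The DNA-binding partners of Ciita and the broadly expressed proteases gave small values. Rfx5, the RFX subunit that contacts the X box, was at log2 0.14 (SE 0.13, limma adjusted p = 0.678) in IKK2-CA against control islets. The remaining RFX subunits Rfxap and Rfxank and the NF-Y subunits Nfya, Nfyb and Nfyc lay between log2 −0.17 and 0.13. The cathepsin genes Ctsl, Ctsb and Ctsd lay between −0.008 and 0.18. Cd83 and Marchf1, which set how long class II stays on the surface, were at log2 0.22 and 0.28. The protease genes Lgmn and Sppl2a were at 0.24 and 0.17, and Creb1, whose product also binds class II promoters, was at −0.08. None of these genes passed. Against Pdx-1+/- islets 0 of the 17 passed, where 0.0752% of all genes rose. At an unadjusted p under 0.05 (limma) there were 3, against 4.32% of all genes in the upward direction: Ifi30 (log2 0.94), H2-Ea (0.91) and H2-Eb2 (0.76). Rfx5 was the fourth in size at log2 0.24.

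Of 12 listed genes that act upstream of Ciita, 11 were measured, and 2 rose against control islets, as did 0.682% of all genes. Ifngr2, a chain of the interferon-γ receptor, read 9.92, 9.92, 10.25, 9.80 and 10.55 in IKK2-CA islets, against 9.57, 9.60, 9.31, 9.40 and 9.48 in control islets. Its groups did not overlap, and it rose 1.53-fold (log2 0.62, SE 0.13, limma adjusted p = 0.0219). Irf8, a transcription factor of dendritic cells and other myeloid cells, read 8.03, 8.24, 8.50, 7.86 and 9.59 in IKK2-CA islets, against 7.09, 7.64, 7.06, 7.60 and 7.36 in control islets. It rose 2.13-fold without overlap (log2 1.09, SE 0.25, limma adjusted p = 0.0406). Jak2, the receptor's kinase, was at log2 0.63 (limma adjusted p = 0.064), and Spi1, the myeloid factor PU.1, at 0.83 (limma adjusted p = 0.0873). The cytokine gene Ifng itself was at log2 0.24 (SE 0.22, limma adjusted p = 0.69), and Irf1, which interferon-γ induces, at −0.08 (SE 0.35, limma adjusted p = 0.959). Ifngr2 was lost without IKK2-CA array 3 or control arrays 3, 4 or 5, with adjusted p up to 0.0783. Irf8 was lost without any 1 of 9 arrays (IKK2-CA arrays 2 and 3, Pdx-1+/- arrays 1, 2 and 3 and control arrays 1, 3, 4 and 5), with adjusted p up to 0.128. With both doubtful arrays out, 3 of the 11 rose, against 0.943% of all genes.

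Against Pdx-1+/- islets all 11 were positive, as were 45% of all genes, and 0 passed, where 0.0752% of all genes rose. The list was not split into genes that raise and genes that lower Ciita, so a shared sign does not give a direction for Ciita. At an unadjusted p under 0.05 (limma) there were 6, against 4.32% of all genes in the upward direction. The 4 with the largest differences were Irf8 (log2 1.23, adjusted p = 0.13), Irf4, a factor of dendritic and B cells (0.98, adjusted p = 0.619), Spi1 (0.79, adjusted p = 0.424) and Jak2 (0.61, adjusted p = 0.34). Irf4 rested largely on IKK2-CA array 5, which read 8.42, while IKK2-CA arrays 1 to 4 read 6.10 to 6.30. Ifng was at log2 0.46 (SE 0.23, adjusted p = 0.758).

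**Figure D3:**
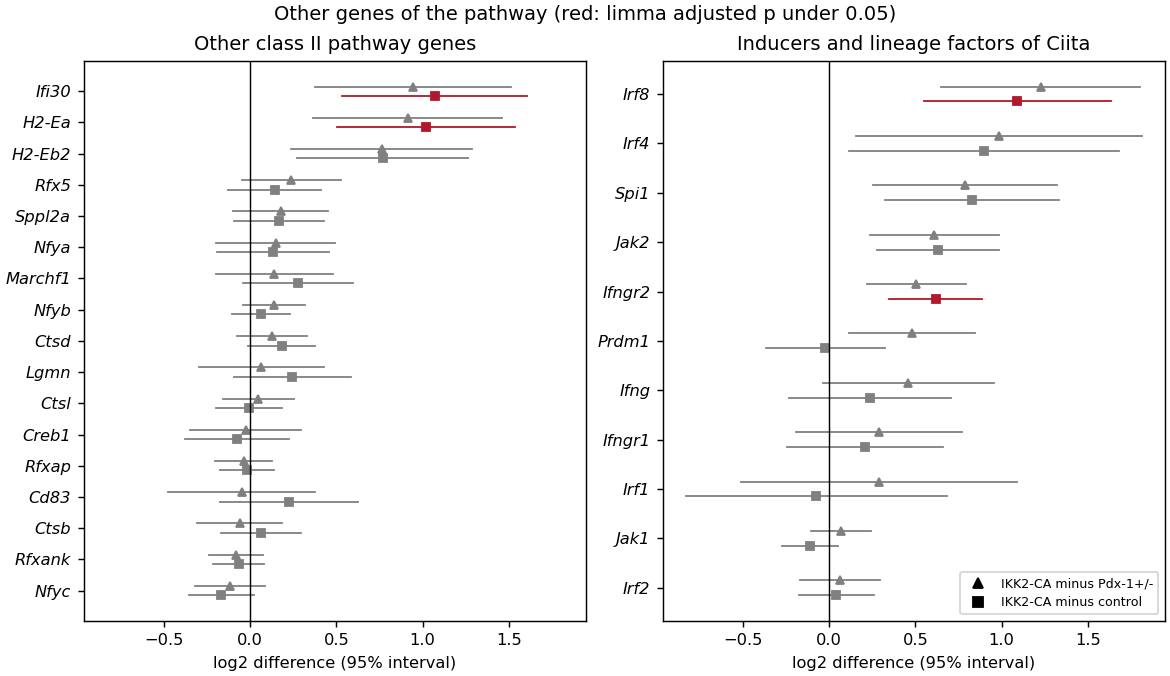
Log2 difference (horizontal axis, points, with 95% interval) of 17 other class II pathway genes and of 11 inducers and lineage factors, in IKK2-CA minus Pdx-1+/- (triangles) and IKK2-CA minus control (squares); red marks a limma adjusted p under 0.05. Ifi30, H2-Ea, Irf8 and Ifngr2 are the 4 genes in red, and the RFX and NF-Y subunits lie near 0.

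Of the 9 genes, 6 neighbour each other on chromosome 17. Between H2-Oa and H2-Ea in RefSeq's order (GRCm38.p6) lie 14 protein-coding genes, of which 12 were measured: these 6 and 6 others. None of the 6 others passed in either comparison. The differences of Tap1 and Tap2, which pump peptides for MHC class I, were log2 0.89 and 0.30 in IKK2-CA against control islets. Those of Psmb8 and Psmb9, subunits of the immunoproteasome, were 0.84 and 0.66. Brd2, a chromatin reader between H2-Oa and H2-DMa, was at log2 −0.02 (SE 0.08, limma adjusted p = 0.942), with a 95% interval of −0.19 to 0.15 that lies below those of both H2 neighbours. In the comparison with Pdx-1+/- islets the interval of Brd2 (log2 −0.14 to 0.22) overlapped that of H2-Oa (0.16 to 1.10). Cd74, Ciita and Ctss, which lie elsewhere in the genome, were within the range of the H2 genes.

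**Figure D4:**
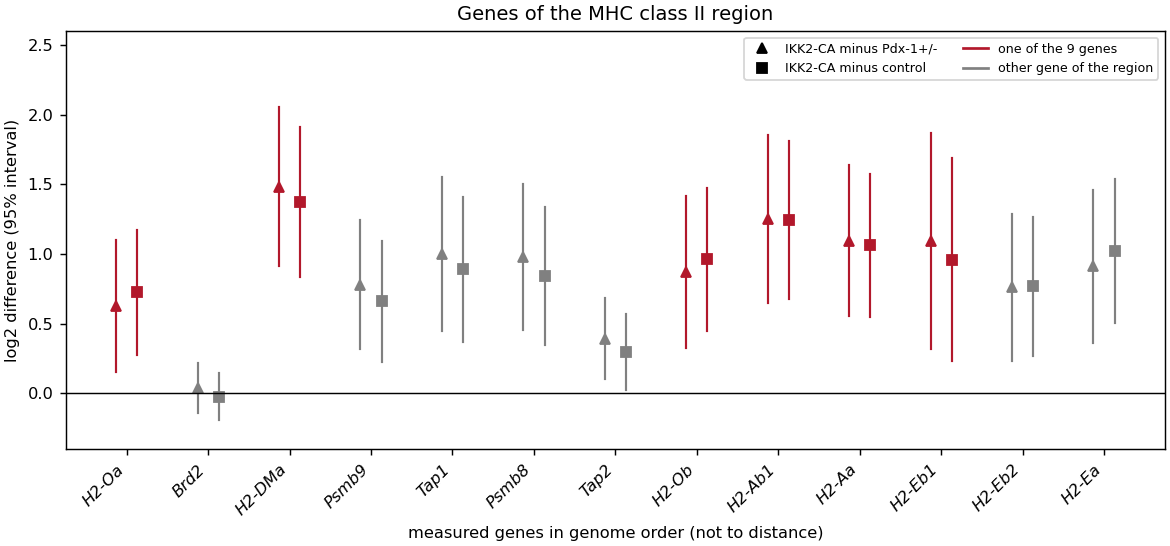
Log2 difference (vertical axis, points, with 95% interval) of the 13 measured genes from H2-Oa to H2-Ea in genome order, in IKK2-CA minus Pdx-1+/- (triangles) and IKK2-CA minus control (squares); red are genes of the 9 and grey the other genes. Brd2, between H2-Oa and H2-DMa, is the gene whose intervals contain 0.

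Markers of cells that make MHC class II did not all go with these genes. Of 10 dendritic cell markers, 8 rose in IKK2-CA islets against control islets and 5 against Pdx-1+/- islets (limma), with medians of log2 1.5 and 1.55. Over all genes, 0.682% and 0.0752% rose in the same comparisons. Itgax, or CD11c, was at log2 2.16 and 2.21 in these comparisons, and Xcr1 and Clec9a, of cross-presenting dendritic cells, were at 1.65 and 1.39 against control. Of the other markers that rose against control, Itgae was at log2 1.90, Ccr7 at 1.59, Fscn1 at 1.53, Cd209a at 1.47 and Flt3 at 1.27. Those that rose against Pdx-1+/- islets were Itgax, Itgae, Fscn1, Xcr1 and Ccr7. Batf3 and Zbtb46, transcription factors of the same lineage, were at 0.13 and 0.02 and did not pass. Of 12 macrophage markers 0 passed in either comparison (limma), with medians of log2 0.13 against control and 0.02 against Pdx-1+/- islets. At an unadjusted p under 0.05 there were 1 and 2, of which Mrc1 was lower against Pdx-1+/- islets (log2 −0.51). Over all genes, 6.2% and 4.32% had such a p in the upward direction. Csf1r and Adgre1, which mark macrophages, were at −0.01 and 0.05 against control. Of the 7 measured B-cell markers and the 6 T-cell markers 0 passed in either comparison (limma). At an unadjusted p under 0.05, 2 B-cell and 4 T-cell markers were higher against control, where 6.2% of all genes were. Against Pdx-1+/- islets there were 0 and 4, with 4.32% of all genes. Without IKK2-CA array 4, 1 B-cell and 2 T-cell markers rose against control, where 980 of all genes passed in either direction. Of 5 general leukocyte genes Cd52 rose in both comparisons, and Ptprc, or CD45, was at log2 1.01 against control (limma adjusted p = 0.0613). All 5 leukocyte genes rose against control without IKK2-CA array 4. The dendritic count against control was 7 without control array 3, where 120 of all genes passed, and 8 without any other single array. Against Pdx-1+/- islets it was 0 without IKK2-CA array 3 or any 1 of the 4 Pdx-1+/- arrays, and 7 without IKK2-CA array 4 or IKK2-CA array 5. The count over all genes in that comparison moved too. It was 15 with all arrays, 2 without Pdx-1+/- array 1 and 66 without IKK2-CA array 5. Cd52 was lost against Pdx-1+/- islets without IKK2-CA array 3, any 1 of the Pdx-1+/- arrays or control array 1.

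Markers of the islet endocrine cells had the opposite sign. All 8 endocrine markers were negative in IKK2-CA against control islets, with a median of log2 −0.25, and 3 fell (limma), as did 1.56% of all genes. Slc2a2, the glucose transporter of mouse β-cells, read 8.88, 8.76, 8.78, 9.73 and 7.89 in IKK2-CA islets, against 10.30, 9.90, 11.28, 10.99 and 11.17 in control islets. It did not overlap (log2 −1.92, limma adjusted p = 0.00694) and passed whichever single array was left out. Ucn3, a marker of mature β-cells, was at log2 −2.07 (limma adjusted p = 0.0407) and Sst, the somatostatin gene, at −0.67 (limma adjusted p = 0.0358). Both overlapped between the groups. Ucn3 was lost without any 1 of 10 arrays (IKK2-CA arrays 1, 3 and 5, Pdx-1+/- arrays 1, 2 and 3 and control arrays 1, 3, 4 and 5), with adjusted p up to 0.126. Sst was lost without any 1 of 9 (IKK2-CA arrays 1, 2, 3 and 5, Pdx-1+/- array 3 and control arrays 1, 3, 4 and 5), with adjusted p up to 0.119. In IKK2-CA against Pdx-1+/- islets 7 of the 8 were negative and 0 passed, and 0 had an unadjusted p under 0.05 (limma). In Pdx-1+/- against control islets 7 of the 8 were also negative and 0 passed, while 3 had an unadjusted p under 0.05 (4.71% of all genes). Slc2a2 was at log2 −1.43 there without overlap (limma adjusted p = 0.188), Ucn3 at −1.24 and Sst at −0.45.

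Mean levels of the lists were also compared array by array. The mean of the dendritic markers, as log2 deviation from each gene's mean over 14 arrays, ran from 0.53 to 1.70 on IKK2-CA arrays, from −0.62 to −0.33 on Pdx-1+/- arrays and from −0.65 to −0.29 on control arrays. The mean of the 9 class II genes ran from 0.19 to 1.59, from −0.50 to −0.22 and from −0.73 to −0.02 on the arrays of the same groups. Neither overlapped between IKK2-CA and the other groups. The mean of the 5 general leukocyte genes did not overlap either, at −0.02 to 1.72 in IKK2-CA, −0.56 to −0.12 in Pdx-1+/- and −0.75 to −0.18 in control islets. The macrophage mean did overlap, at −0.43 to 0.68 in IKK2-CA, −0.09 to 0.13 in Pdx-1+/- and −0.43 to 0.15 in control islets. So did the B-cell mean, at −0.52 to 0.82, −0.35 to 0.48 and −0.48 to 0.21. IKK2-CA array 4 had a macrophage mean of −0.43 and a B-cell mean of −0.52, with a dendritic mean of 0.55 and a class II mean of 0.19. It was the lowest IKK2-CA array for the class II, macrophage, B-cell, T-cell and leukocyte means, but not for the dendritic mean. From high to low, the IKK2-CA arrays had the same order for the class II, B-cell, T-cell and leukocyte means. For the dendritic mean the order differed only in IKK2-CA arrays 4 and 1, which lay close together (0.55 and 0.53). For the macrophage mean it differed only in IKK2-CA arrays 2 and 3 (0.14 and 0.05). IKK2-CA array 5 was highest for all of these lists and had an adipocyte mean of 2.69, where IKK2-CA arrays 1 to 4 had −0.67 to −0.06. The endocrine mean ran from −0.67 to 0.15 in IKK2-CA, −0.35 to 0.07 in Pdx-1+/- and 0.05 to 0.54 in control islets. The part of any of these cells in the class II signal was not tested.

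**Figure D5:**
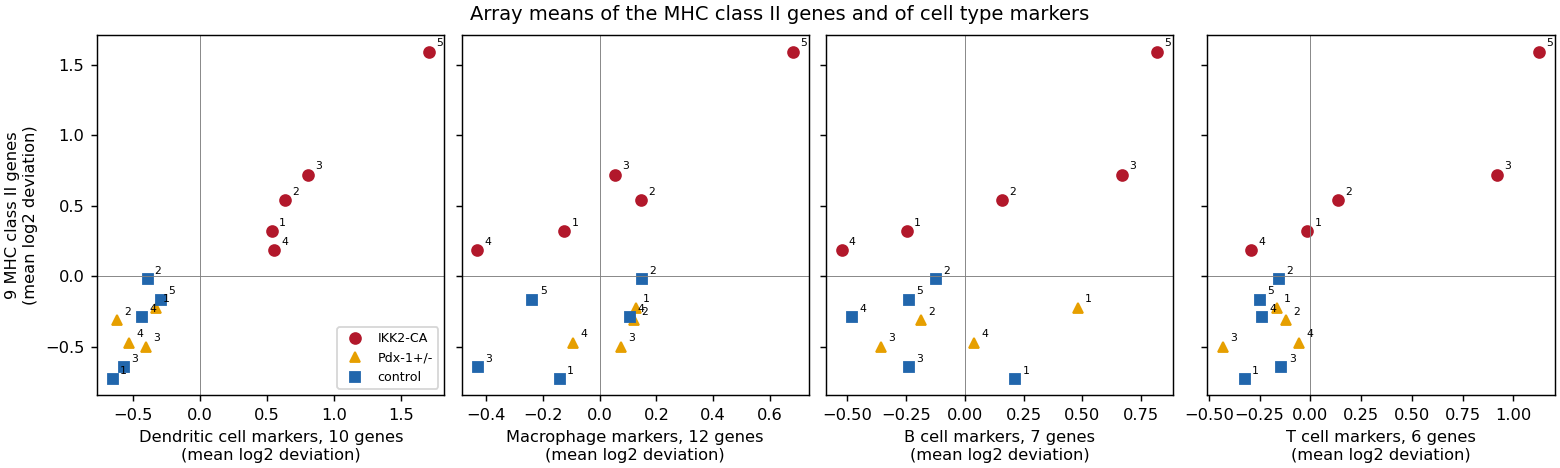
Mean log2 deviation of the 9 class II genes (vertical axis) against that of dendritic, macrophage, B-cell and T-cell markers (horizontal axes) for each array; colours and symbols give the group and numbers the array. IKK2-CA arrays lie apart from the other arrays along the dendritic axis and are spread along the other axes.

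The 9 genes varied together within the groups, as a description over 14 arrays after each group's mean was taken out. Pearson r of each gene with the mean of the other 8 was highest for H2-DMa (0.97), H2-Aa (0.92) and Cd74 (0.92). It was lowest for H2-Ob (0.71), H2-Eb1 (0.77) and H2-Oa (0.78). Over the 12 arrays left with both doubtful arrays out it was 0.94 for H2-DMa, 0.95 for H2-Aa and 0.94 for Cd74, but 0.36 for H2-Ob, 0.42 for H2-Oa and 0.56 for Ciita. All values of an array come from the same islet sample, and the part of its cell content in these correlations was not tested.

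Outside the 9, the genes nearest to this pattern included several of leukocytes. The 8 with the highest r to the mean of the 9 within groups were Adcy7 (0.97), Irf8 (0.97), Arhgap30 (0.96), Mpeg1 (0.96), Dock8 (0.96), Akna (0.96), Selplg (0.95) and Aif1 (0.95). Over the 12 remaining arrays these values were 0.86 to 0.92. Irf8, Mpeg1, the macrophage perforin, Akna and Selplg, the P-selectin ligand, rose in IKK2-CA against control islets (log2 1.09, 1.16, 0.77 and 1.05, limma adjusted p = 0.0406, 0.0162, 0.0411 and 0.0444). Adcy7, a leukocyte adenylyl cyclase, Arhgap30, Dock8 and Aif1 did not pass. Mpeg1 was lost without control array 3 (adjusted p = 0.0561). Akna and Selplg were each lost without any 1 of the 9 arrays named for Irf8: IKK2-CA arrays 2 and 3, Pdx-1+/- arrays 1, 2 and 3 and control arrays 1, 3, 4 and 5 (adjusted p up to 0.126 and 0.141).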

How the data were processed

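The authors analysed scanner images of Affymetrix Mouse Gene 1.0 ST arrays in Affymetrix Expression Console and deposited log2 signals per transcript cluster, summarised with robust multichip averaging, per the labels and the submitters' processing notes. No software version is given in the sources used, and the log base was read from the values. Of 35556 clusters, 21789 have 1 gene symbol. The brightest cluster was kept for each of 19938 genes, and no filter or further normalization was applied. limma 3.58.1 in R 4.3.3 (lmFit and eBayes) fitted 3 group means over 14 arrays (residual degrees of freedom 11, prior 3.46). Adjusted p-values are Benjamini and Hochberg's over all genes of a comparison, at 0.05. SE is the moderated standard error, and folds are antilogs of the differences. The fit was tested on simulated data.

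The 9 genes, the lists, the marker genes and the choice of the 2 arrays left out together were made with earlier results of these data known. The rule for named genes took all 9 genes, those of the pathway and inducer lists that passed or had the 4 largest differences against Pdx-1+/-, and the 8 genes most like the 9. Cell markers and other genes are named outside that rule, chosen after their values were seen. Replicate numbers gave no sign of pairing. Same-number correlations of deviations ran from −0.391 to 0.356 (median −0.05), other-number ones from −0.443 to 0.468 (median 0.033). These ranges cannot exclude a pairing. No 2 arrays of a group held the same values. Alternatives were median centring, quantile normalization, a trended robust variance, 2 groups alone, dropping the dimmest 30% of genes, all clusters, cluster means, array weights, the replicate block, and leaving out arrays. The number of arrays limits the precision.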

Additional observations from a re-analysis of the deposited data

Results flagged for a closer look

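For each of the 9 genes in each of the 3 groups, Dixon's test asked whether the highest or lowest array stood apart from the rest. It did in 4 of 27 sets of values, where chance gives about 1 in 20. Ciita and Ctss were high on IKK2-CA array 5, Ciita at 7.67 with the next array at 6.73 and Ctss at 10.88 with the next at 9.45. Ctss was low on Pdx-1+/- array 4, at 8.20 with the next at 8.50. H2-Aa was low on Pdx-1+/- array 3, at 10.22 with the next at 10.61.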

How the results depend on the processing

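No difference of the 9 genes in either comparison of IKK2-CA islets changed sign under any alternative run, the 14 that left out 1 array each included. Against Pdx-1+/- islets 209 single-gene values kept their side of the threshold and 7 newly passed. Against control islets 181 kept it, 13 newly passed and 22 no longer passed. The count of the 9 that passed against Pdx-1+/- islets was 1 in place of 0 with the dimmest 30% of genes dropped, with array weights, and with both IKK2-CA array 5 and Pdx-1+/- array 4 left out. It ran from 0 to 3 with single arrays left out. Against control the count was 2 in place of 5 with only the 2 groups compared and 8 with array weights, and ran from 0 to 8 with single arrays left out. Over all genes, 15 passed against Pdx-1+/- islets: 1 with only the 2 groups compared, 52 with array weights, 52 with both arrays left out and 2 to 66 with single arrays left out. Against control 448 passed: 241 with only the 2 groups compared, 1431 with array weights and 120 to 980 with single arrays left out. Between Pdx-1+/- and control islets 19 passed: 73 with array weights and 9 to 48 with single arrays left out. With the replicate block, although the numbers gave no sign of pairing, 9, 197 and 9 of all genes passed in these comparisons. The counts of the 9 genes were as before (0, 5 and 0). The causes were not tested.

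Differences between Pdx-1+/- and control islets, none of which passed, changed sign in 29 values and kept it in 187. H2-Ab1 was at 0.0126 with median centring, 0.0268 with quantile normalization, 0.0192 with array weights, 0.1344 with the replicate block and 0.0793 with both arrays left out. Ctss was at 0.0204 with quantile normalization, 0.0426 with array weights, 0.1357 with the replicate block and 0.049 with both arrays left out. H2-Aa was at 5e-04 with quantile normalization and 0.1205 with the replicate block, H2-DMa at 0.057 with the replicate block and Cd74 at −0.0405 with array weights. With single arrays left out, differences ran from −0.1814 to 0.0858 for H2-Aa, −0.1941 to 0.1431 for H2-Ab1, −0.3616 to 0.1066 for H2-Eb1, −0.0813 to 0.1863 for H2-Ob, −0.1108 to 0.089 for Cd74, −0.0024 to 0.1496 for Ciita and −0.0708 to 0.049 for Ctss. The number of arrays limits the precision.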

Other observations

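Control islets differed among themselves in the genes of the presenting pair. H2-Eb1 read 8.72 and 9.02 on control arrays 1 and 3 and 10.59, 10.11 and 9.72 on control arrays 2, 4 and 5, an SD of 0.77 (n = 5). H2-Ab1 (9.09 and 9.38 against 10.07 to 10.44) and Cd74 (10.49 and 10.40 against 11.06 to 11.20) were low on the same control arrays. Ctss (SD 0.17, n = 5) and H2-Oa (SD 0.11, n = 5) varied less there. Control array 3 held intestinal genes (a mean of 1.89 over 4 enterocyte markers), while control array 1 did not (−0.47).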
